A study of Mus musculus with 6 samples.

Results

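The 9 transcripts described here lie inside Pdzrn3 (ENSMUSG00000035357.16), a mouse gene for a ubiquitin ligase, and are 9 of the 3093 long non-coding RNA transcripts in a table from pancreatic islets. A transcript was counted as a member when its interval overlapped the GENCODE M21 gene body of Pdzrn3 more than that of any other gene. All 9 transcripts touching the gene body met that rule, and each is a separate locus in the authors' numbering. Islets of C57BL/6 mice were taken after 8 weeks on a normal chow diet (NCD, 3 libraries) or on what the labels call a high-fed diet (HFD, 3 libraries). The labels name no other allele or agent for either group, nor the animals' sex or age. The table holds 1 FPKM value per group (fragment counts scaled to transcript length and to mapped fragments). No replicate check therefore exists for any difference below, and no p-value is given. Pdzrn3 was chosen for study because most of its transcripts were higher in HFD in these same values, so their direction is a description and supports nothing by itself. The db/db mice of the series title were not analysed here.

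Pdzrn3 belongs to a small family of ubiquitin ligases that join a RING finger, the domain that brings in the ubiquitin-carrying enzyme, to PDZ domains, which bind the tails of membrane and scaffold proteins. The protein is known from muscle, where it acts on the receptor kinase MuSK at the neuromuscular junction and on myoblast differentiation, and from blood vessels, where it acts on Dishevelled in planar Wnt signalling. An intronic transcript is not a measure of this protein or of its mRNA. Without exon structure in the table it cannot be told from unspliced RNA of the host gene.

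In GRCm38, Pdzrn3 spans chromosome 6: 101149609 to 101377897 on the minus strand, a length of 228289 bases with 4 annotated isoforms. The only isoform annotated as protein-coding, called the main isoform here, has 10 exons. Its transcription start is the point from which positions below are measured, so the 250 bases before it are shown (chr6:101377898-101378147, minus strand, RefSeq, GRCm38.p6), 5′ to 3′, with matches to the CCAAT and GGGCGG motifs in capitals.
Pdzrn3 promoter: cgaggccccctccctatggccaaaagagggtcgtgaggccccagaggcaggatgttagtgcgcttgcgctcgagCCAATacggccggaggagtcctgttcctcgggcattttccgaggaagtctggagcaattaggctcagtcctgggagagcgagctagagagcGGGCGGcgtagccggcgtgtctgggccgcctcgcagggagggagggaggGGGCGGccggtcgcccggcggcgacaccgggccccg
The stretch was GC-rich, with 69.2% G or C against a median of 52.4% over 32851 RefSeq promoters of the same length. It held 25 CpG pairs against a median of 6, and 89.3% of promoters held fewer. Motifs were searched on both strands, and positions are those of a match's first base counted back from the start. CCAAT matched at -176, as in 33.8% of promoters, and GGGCGG at -85 and -36, as in 32.7%. TATAAA, found in 12.4% of promoters, was not among the letters of this window. None of the 9 transcripts lay at the promoter, and a motif match is a description of the letters only.

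All 9 transcripts lay in 1 intron. Intron 3 of the main isoform, from 101172448 to 101354393, is 181.9 kb long and makes up 79.7% of the gene, while the other 8 introns held 0 of the transcripts. Within it the transcripts occupied a stretch of 92.2 kb, from 101252637 to 101344878, which began 9.52 kb into the intron on the side of the gene start. The remaining 80.2 kb of the intron, towards the gene end, held none. The transcripts touched no annotated exon of any gene. The shortest spanned 365 bases, the median 688 and the longest 1683, and together they covered 4.01% of the intron. Neighbours were 1.21 to 25.2 kb apart, with a median gap of 8.15 kb.

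The locus numbers add a strand. On 21 of the 22 chromosomes of the table the numbers rise with position and restart once, and for intronic transcripts lying in genes of 1 strand only, 1850 of 1981 (93.4%) were numbered before the restart in plus-strand genes or after it in minus-strand genes. For transcripts touching exons the same match was 183 of 374 (48.9%). All 9 Pdzrn3 transcripts were numbered after the restart, the part that intronic transcripts of minus-strand genes such as Pdzrn3 occupy. The strand is inferred from the numbering alone and is not stated in the table. The members' numbers fall in a run of 14 consecutive locus numbers, of which 9 are in the table and 5 are not analysed here.

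Annotated genes other than Pdzrn3 lie in the same region. On the minus strand, 4 short gene models of the class TEC, which GENCODE reserves for loci awaiting experimental work, lie in the intron. The transcript nearest to the gene start, TCONS_00098159, ended 13 bases from one of them, Gm43947 (101344892 to 101345850), on its downstream side. TCONS_00098156 lay 1.25 kb from Gm43953, TCONS_00098149 lay 3.81 kb from 9530086O07Rik, and Gm43946 was 3.07 kb from TCONS_00098159. The antisense genes Gm26911 and Gm43948, on the plus strand, were 32.5 and 54.6 kb from the nearest transcript. No transcript therefore lay over an annotated antisense gene of the locus.

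Levels were low and close together in both groups. The FPKM of the 9 transcripts ran from 0.440 to 2.04 in NCD with a median of 1.00, and from 0.631 to 3.04 in HFD with a median of 1.08. The highest was 4.64 times the lowest in NCD and 4.82 times in HFD. The median intronic transcript of the table was at 2.81 FPKM in NCD against 1.40 in HFD. All 9 lay below that median in NCD and 7 of 9 in HFD, the exceptions in HFD being TCONS_00098156 and TCONS_00098146.

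**Figure D1:**
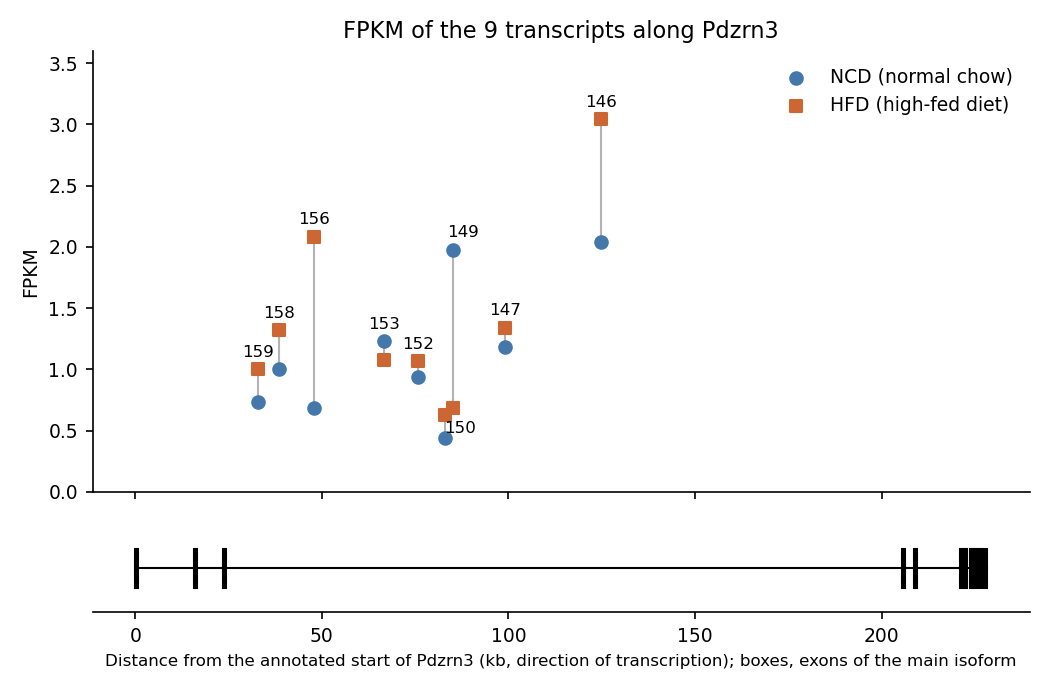
FPKM in NCD (circles) and HFD (squares) of the 9 Pdzrn3 transcripts against the distance of their nearer end from the annotated gene start in kb, labelled with the last 3 digits of their identifiers, above the exons of the main isoform (boxes, drawn at least 0.8 kb wide). All 9 lie in the long intron 3, between 33.0 and 124.9 kb from the start, and most pairs of points are close together.

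Fewer fragments stand behind some of these values than behind others. Once the transcript length was allowed for, low values fell on steps of whole fragments almost throughout in HFD and only in part in NCD. The fit gave totals (in units of 1e6 fragments) of 80.2 for HFD and 67.9 for NCD. In transcripts kept out of the fit, 495 of 497 HFD values under 30 fragments (99.6%) came within 0.15 of a whole number, where 30% would by chance. For NCD this was 205 of 322 (63.7%), and 60 of 68 (88.2%) under 8 fragments, so NCD fragments are less certain. The 9 Pdzrn3 transcripts, also kept out of the fit, were whole in 9 cases in HFD and in 5 in NCD. The NCD values of TCONS_00098159, TCONS_00098158, TCONS_00098149 and TCONS_00098146 were not whole and were rounded. The 9 transcripts stood for 6 to 72 fragments in NCD and 12 to 114 in HFD. Intervals below are exact 95% binomial intervals on the split of these fragments, for FPKM ratios with no pseudocount, and cover counting error only, not variation between mice.

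Following the direction of transcription, the first pair of transcripts were the longest. TCONS_00098159 (chromosome 6: 101343196 to 101344878, 1683 bases, 33.0 kb from the start) had 0.730 FPKM in NCD against 1.00 in HFD, or 68 and 112 fragments. Its log2 ratio of HFD over NCD, here always with 0.1 FPKM added to both, was 0.41, and the counting interval was 0.02 to 0.92. Its NCD value came to 68.41 fragments before rounding, so the lower end of the interval, close to 0, is less certain. The next, TCONS_00098158 (101338032 to 101339395, 1364 bases), was at 1.00 and 1.32 FPKM, or 72 and 114 fragments. Its log2 ratio was 0.36 with an interval of -0.03 to 0.85. These are the best counted of the 9, and both were about equally higher in HFD, close to the edge of what counting error allows.

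The most different value towards HFD came next. TCONS_00098156 (101329453 to 101329877, 425 bases) had 0.688 FPKM in NCD against 2.08 in HFD, 3.03 times higher, with a log2 ratio of 1.47. It was the single transcript of the 9 at least 2-fold higher, where 6.27% of all 3093 transcripts and 4.43% of the 2054 intronic ones were. Its NCD value stood for 6 fragments and its HFD value for 23, and the interval of 0.24 to 3.16 was the widest of the 9.

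The middle of the stretch held values that barely differed. TCONS_00098153 (101310255 to 101311155, 901 bases) had 1.23 FPKM in NCD against 1.08 in HFD, a log2 ratio of -0.18 with an interval of -0.77 to 0.40. TCONS_00098152 (101301584 to 101302105, 522 bases) was at 0.941 and 1.07, a ratio of 0.16 with an interval of -0.87 to 1.29. Neither differed beyond counting error.

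Next along the gene, 2 transcripts only 1.21 kb apart went opposite ways. TCONS_00098150 (101294045 to 101294885, 841 bases) had the lowest level of the 9 in both groups, 0.440 FPKM in NCD against 0.631 in HFD, a log2 ratio of 0.44 (interval -0.41 to 1.51). TCONS_00098149 (101292325 to 101292832, 508 bases) was at 1.98 FPKM in NCD against 0.680 in HFD, 2.90 times lower, with a log2 ratio of -1.41 (interval -2.66 to -0.53) from 28 and 12 fragments. It was the single transcript at least 2-fold lower, as were 41.9% of all transcripts and 48.8% of intronic ones. That call ends under other scalings. The ratio of TCONS_00098149 was -0.59 after centring on the median of all transcripts and -0.43 after centring on intronic transcripts. After quantile normalization it was -0.58. Under these settings the number of the 9 at least 2-fold higher went from 1 to 5, 7 and 5. Shares over all transcripts are given as reported only, so nothing is read from the rescaled counts. The pair's intervals did not overlap: TCONS_00098149 was at 4.49 times the level of TCONS_00098150 in NCD and 1.08 times in HFD. The pair was singled out after its values were seen.

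Farthest from the start were TCONS_00098147 (101278242 to 101278929, 688 bases) and TCONS_00098146 (101252637 to 101253001, 365 bases). TCONS_00098147 had 1.18 FPKM in NCD against 1.34 in HFD, a log2 ratio of 0.17 (interval -0.52 to 0.90). TCONS_00098146 was the highest of the 9 in both groups, at 2.04 and 3.04, with a ratio of 0.55. It is also the shortest, and its 10 and 20 fragments gave an interval of -0.56 to 1.86, so its higher value in HFD was within counting error.

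**Figure D2:**
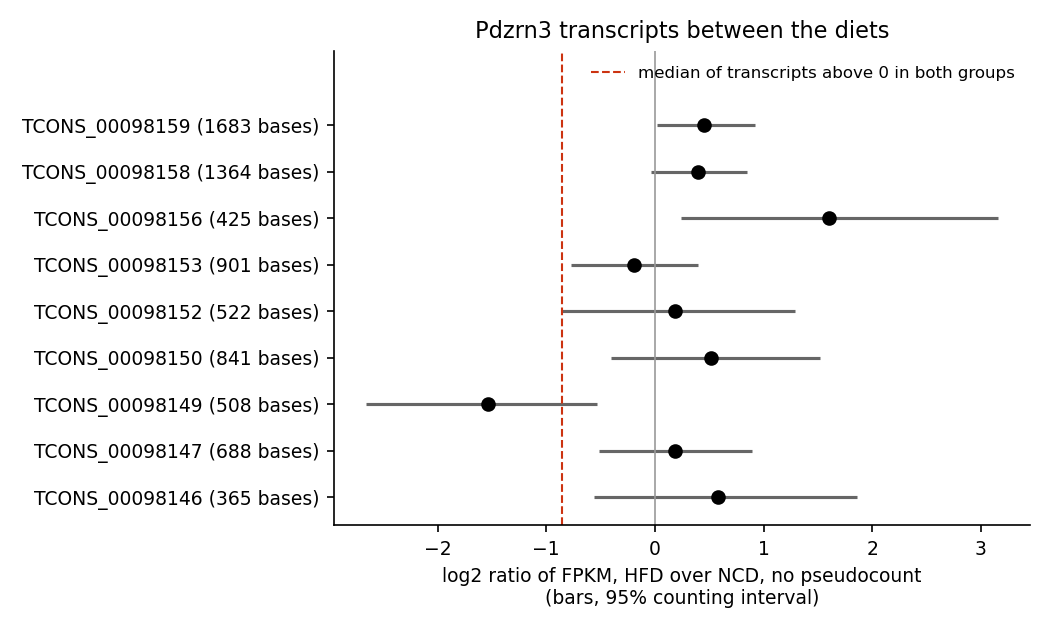
Log2 ratio of HFD over NCD FPKM without a pseudocount for each Pdzrn3 transcript (points) with its 95% counting interval (bars), ordered from the gene start at the top, with a dashed line at the median of the 2964 transcripts of the table above 0 in both groups (-0.86). The intervals lie above 0 for 2 transcripts, below 0 for 1 and across 0 for 6, and 7 of the 9 lie wholly above the dashed line. The gene was chosen on these ratios and no share over all transcripts is given for the intervals, so nothing is read from these counts.

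As a set, 7 of the 9 transcripts were higher in HFD and 2 lower, where 20% of all transcripts were higher and 80% lower. Of the 2054 intronic ones, 13.5% were higher and 86.5% lower. The median log2 ratio was 0.36 against -0.82 over the table and -0.98 over intronic transcripts. These shares are given beside the members' count because the gene was chosen on this contrast, and nothing is read from the difference. Counting intervals of single transcripts lay above 0 for TCONS_00098159 and TCONS_00098156, below 0 for TCONS_00098149 and across 0 for the other 6. No share over all transcripts is given for these intervals, so nothing is read from these counts. Summed over the 9, FPKM was 10.2 in NCD and 12.2 in HFD, 1.20 times higher. Over all transcripts the sums were 15448 in NCD and 17702 in HFD, also higher in HFD. Over all intronic transcripts they were 10052 and 7921, lower in HFD. The pooled fragments of the 9, 295 in NCD and 425 in HFD, gave a log2 ratio of 0.29 after scaling by the fitted totals. Its counting interval was 0.07 to 0.50. Without the 2 transcripts past 2-fold, one on each side, it was 0.34. These 9 intervals cover 4.01% of the intron, and since they were chosen on the same values the pooled ratio and its interval are a description only.

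The ratio showed no clear trend along the gene, though a trend could be missed with 9 sites and wide counting intervals. Across the 9 transcripts, Pearson's coefficient of log2 ratio with distance from the start was -0.24 and Spearman's rank coefficient -0.10. In NCD the FPKM was higher farther from the start (Pearson 0.63, Spearman 0.55), and less so in HFD (Pearson 0.39, Spearman 0.18). These are descriptions over 9 sites of 1 gene that share their libraries, and the farthest site is also the shortest. The absolute log2 ratio was lower at longer spans only loosely (Pearson -0.39, Spearman -0.47, 9 sites). The 5 transcripts of at least 600 bases had log2 ratios from -0.18 to 0.44 with an SD of 0.25, and the 4 shorter ones from -1.41 to 1.47 with an SD of 1.20. The wider spread of the shorter ones rests on TCONS_00098149 and TCONS_00098156, since the other pair were at 0.16 and 0.55. Other intronic transcripts in the members' ranges of mean FPKM and span had an SD of 0.76 at 600 bases or more (391 transcripts) and 1.36 below (336 transcripts). Only the shorter set includes transcripts at 0 FPKM in a group, whose ratios depend on the 0.1 FPKM added. The 4 shorter Pdzrn3 transcripts also stood for few fragments, and the part of this in the spread was not tested.

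**Figure D3:**
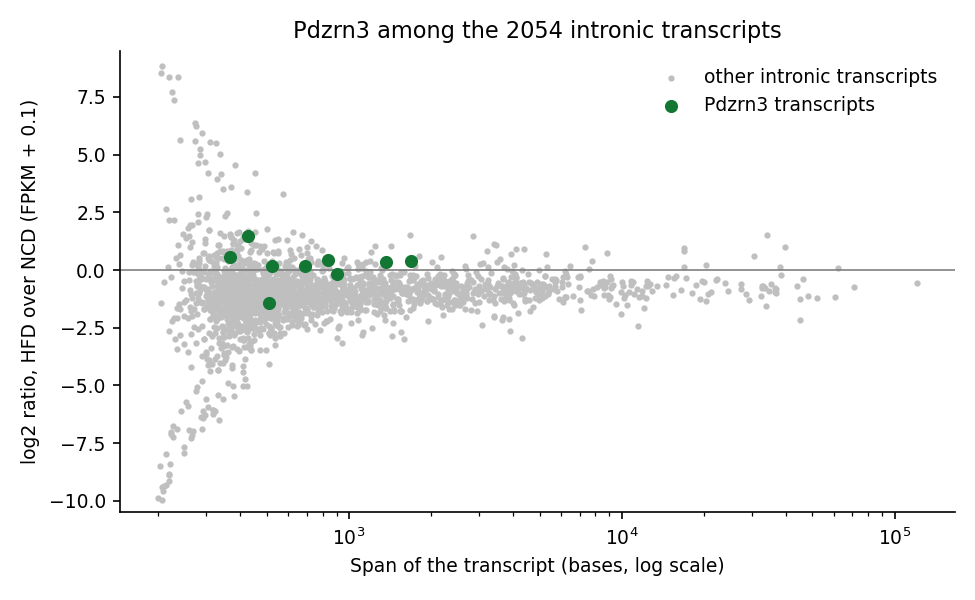
Log2 ratio of HFD over NCD (FPKM + 0.1) against span on a log axis for the 2054 intronic transcripts, with the 9 Pdzrn3 transcripts as large points. Ratios fan out at short spans, and the 5 Pdzrn3 transcripts of at least 600 bases lie between -0.18 and 0.44.

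Transcripts like those of Pdzrn3 in level, span and position were mostly lower in HFD. Of 727 other intronic transcripts within the members' ranges of mean FPKM and span, 102 (14.0%) were higher in HFD and the median log2 ratio was -1.07. Of the 190 among these in exon-free stretches of at least 100 kb, as Pdzrn3 transcripts are, 24 (12.6%) were higher, with a median of -1.26. The 727 had median FPKM of 2.18 in NCD and 0.974 in HFD, against 1.00 and 1.08 in Pdzrn3. Since the 727 were chosen by their mean FPKM and Pdzrn3 by its ratio, nothing is read from which of the groups holds the larger gap. On chromosome 6, 22 of 108 other intronic transcripts (20.4%) were higher, with a median of -0.71.

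Around the gene, the table held 2 transcripts within 1 Mb of Pdzrn3, both on the side of the gene end, and they went opposite ways. TCONS_00098136, in an intron of Shq1, a gene for an assembly factor of box H/ACA ribonucleoproteins, lay 570.4 kb away (100578871 to 100579216) and was at 12.1 FPKM in NCD against 2.09 in HFD. Its log2 ratio was -2.48 with a counting interval of -3.63 to -1.57. TCONS_00098131, outside any gene 722.4 kb away (100425963 to 100427209), was at 0.669 and 1.79, a ratio of 1.30 (interval 0.92 to 1.95). With only 2 transcripts at these distances, nothing is read about the surroundings of the gene.

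Among 72 genes holding at least 5 transcripts, Pdzrn3 had the second highest median. Since the gene was chosen on these same ratios, a high rank was favoured beforehand and nothing is read from it. In 67 of them most transcripts were lower in HFD, and in 3 most were higher. The 3 genes with the nearest medians were Arhgap6 (median 0.14, 3 of 5 higher), Inpp4b, a phosphoinositide phosphatase gene (0.63, 12 of 14 higher), and Cdkal1, a tRNA-modifying enzyme gene (-0.07, 2 of 5 higher). They differed in level: the median NCD FPKM was 0.441 in Inpp4b, 3.49 in Arhgap6 and 3.01 in Cdkal1, against 1.00 in Pdzrn3. Arhgap6 ranged from -2.98 to 5.51 among its 5 transcripts, a wider spread than the -1.41 to 1.47 of Pdzrn3. The 5.51 is that of TCONS_00130949, which had no FPKM in NCD, so the 0.1 FPKM added sets its size. The SD of Pdzrn3 log2 ratios, 0.76, was close to the median SD of the 72 genes, 0.69. Like Pdzrn3, 13 of the other genes held all their transcripts in 1 exon-free stretch, so Pdzrn3 is 1 of 14 with that arrangement. By median NCD FPKM, Pdzrn3 ranked sixth from the lowest of the 72, and by median HFD FPKM 28th.

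**Figure D4:**
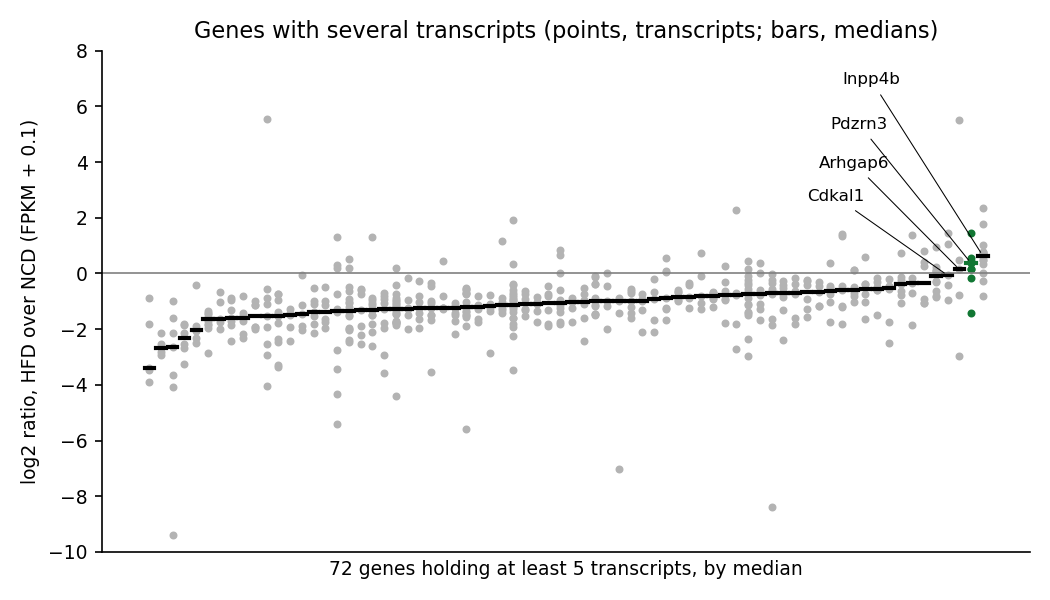
Log2 ratio of HFD over NCD (FPKM + 0.1) of the transcripts (points) and their median (bars) in each of 72 genes holding at least 5 transcripts, ordered by median, with Pdzrn3 in green. Medians of most genes lie below 0, and Pdzrn3, at 0.36, is second to Inpp4b at 0.63. Pdzrn3 was chosen on these ratios, so its rank is a description only.

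Other genes were looked up in 4 lists of relatives and partners of Pdzrn3 and 1 list of other large ubiquitin ligases. Of their 55 annotated genes, without Pdzrn3, 6 held a transcript, 15 transcripts in all and all intronic. In HFD 2 of these were higher and 13 lower, 8 of them at least 2-fold lower and 0 at least 2-fold higher. These counts are near the shares over all intronic transcripts, of which 13.5% were higher, 86.5% lower and 48.8% at least 2-fold lower. The median log2 ratio of the 15 was -1.23, beside -0.98 for all intronic transcripts. In the family of RING and PDZ ligases, Lnx1, a relative of Pdzrn3 that acts on the cell-fate protein Numb, held 1 intronic transcript, with 2.62 FPKM in NCD against 1.02 in HFD (-1.28). Pdzrn4 and Lnx2 had 0. The lists of MuSK and synapse partners and of ephrin and junction partners, each of 5 genes, held 0 transcripts. In the Wnt and planar polarity list of 15 genes, Tcf7l2, which encodes a transcription factor of the Wnt pathway, held 5 transcripts, all lower (median -0.97).

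The list of other large ubiquitin ligases, 27 of them annotated, gave 9 of the 15 transcripts. They lay in 4 genes, 2 higher in HFD and 7 lower, with a median of -1.23, where 86.5% of all intronic transcripts were lower. Nedd4l, a HECT ligase gene known for acting on the epithelial sodium channel, held 6, of which 5 were lower and 1, TCONS_00049411, had 6.28 FPKM in NCD against 8.52 in HFD (0.43). The Hecw2 transcript was at 3.18 and 5.44 (0.76). The transcript in Birc6, which encodes a large inhibitor of apoptosis, was at 2.73 and 1.63 (-0.71). The lowest ratio was in March1, a membrane-bound RING ligase gene, at 3.56 and 0.238 (-3.44). Of the 3 transcripts under 400 bases in this list, those of Hecw2 and Nedd4l were its higher ones and that of March1 its lowest.

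The islet identity of the samples could not be checked in depth from this table, since a transcript in a marker gene is no measure of the marker. Of 36 markers of islet and other pancreatic cell types, 3 held a transcript: Isl1 (-1.26) and Pax6 (-0.41 and -0.49), transcription factor genes of endocrine cells, and the duct marker Epcam (-2.10). All 4 transcripts were lower in HFD, as were 80% of all transcripts. The lists of beta cell and other endocrine markers held 0 transcripts, as did the acinar, endothelial, stromal and immune lists. Fewer cells of a type and less RNA per cell cannot be told apart in such bulk samples, and the part of cell makeup in the Pdzrn3 values was not tested.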

How the data were processed

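Total RNA of mouse islets was sequenced from TruSeq libraries, per the labels' protocols. The authors deposited 1 table with FPKM per diet group, per the file headers, for 3093 transcripts. How a group's 3 libraries were combined, and with which assembler and quantifier, is not given in the sources used here. Builds named by the submitters' processing notes are GRCm38 and mm10, and the intervals were placed against GENCODE M21, which is on GRCm38. Every transcript reached 0.410 FPKM in 1 of the groups. No filter was applied, and no Pdzrn3 transcript was listed at 0.

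The log2 ratio was taken on FPKM plus 0.1, which understates the change of low transcripts, and differences were described by size (2-fold). With 1 value per group the model across libraries that the design provided for could not be run. Fragments were estimated by fitting a total and a skewed normal fragment length to whole-number steps in transcripts of 300 to 1500 bases outside Pdzrn3 (scipy 1.17.1, Python 3.11.15). The mean fragment was 303 bases in NCD and 289 in HFD. Pdzrn3, its transcripts and the gene lists were chosen with earlier results of these data known. Named genes were all Pdzrn3 transcripts, the 3 genes nearest in median, all transcripts within 1 Mb and the list genes holding a transcript. GC content and repeats of the intervals were not analysed here.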

Additional observations from a re-analysis of the deposited data

How the results depend on the processing

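No paired analysis was possible because each group has a single FPKM column, which also means that leaving out libraries could not be done. Centring on the median of intronic transcripts and the use of whole fragments were chosen after the data were seen. Of 54 recomputed values of single transcripts, 41 stayed within their counting interval, 10 moved outside it with the same sign, and 3 changed sign and also lay outside it. The sign changes were those of TCONS_00098153, from -0.18 to 0.64 after centring on the median of all transcripts, 0.80 after centring on intronic transcripts and 0.65 after quantile normalization. Under the same 3 settings the median of the 9 went from 0.36 to 1.18, 1.34 and 1.17. Transcripts at least 2-fold higher went from 1 to 5, 7 and 5, and those at least 2-fold lower from 1 to 0 in each. Centring adds the same amount to every transcript, and shares over all transcripts under these settings are not given. The rescaled counts therefore cannot be set beside the shares as reported. Both 2-fold counts were 0 with a pseudocount of 1 and under a 4-fold rule, settings that can only lower such counts. With a pseudocount of 1 the log2 ratio was 0.87 for TCONS_00098156 and -0.82 for TCONS_00098149, so both 2-fold calls were lost. The number higher in HFD was 8 after either centring and after quantile normalization, 6 among spans of at least 400 bases and 7 in the other settings. A pseudocount cannot change the sign of a ratio, and centring on these medians can only raise that number. Nothing is therefore read from its stability, and the share over all transcripts after rescaling is not given. The summed FPKM stayed higher in HFD when weighted by span. NCD values rest on as few as 6 fragments, which limits the ratios of the short transcripts most.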
